A study of Mus musculus with 10 samples.

Results

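Fetal and stress genes of the heart, 10 in all, were followed in the ventricle of mice with a conditional loss of Trbp: Nppa, Nppb, Acta1, Acta2, Ankrd1, Xirp1, Xirp2, Fhl1, Rcan1 and Gdf15. They were chosen by symbol from the 23360 genes in the mRNA table of 2-week-old mice, and where a gene had several RefSeq transcripts the one with the highest total count was used. Ventricle RNA came from C57BL/6 mice aged 2 weeks with Trbp conditionally knocked out (Trbp-cKO, 2 libraries) or of wild type (WT, 2 libraries). The Trbp protein, encoded by Tarbp2, binds double-stranded RNA and works beside Dicer in trimming precursors to mature miRNAs. The Cre driver of the knockout and the sex of the mice were not given in the sources used here. Nor do the labels say that the 2 libraries of a genotype come from separate animals, so that a p-value reflects the spread of these libraries, which may be technical.

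Many of these genes are active in the embryonic heart and fall silent or drop in the working ventricle after birth. Pressure load, stretch and injury raise them again, which is why Nppa, Nppb and Acta1 are read as markers of cardiac stress. The atrium keeps making Nppa throughout life, skeletal muscle makes Acta1, and smooth muscle makes Acta2, so that their level in a piece of heart also depends on which tissue it holds. In bulk RNA, fewer cells of a type and less RNA per cell cannot be told apart.

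The gene counts summed to 13156464 and 13540495 in the Trbp-cKO libraries and 13113024 and 10151184 in the WT libraries. CPM stands for counts scaled to TMM-corrected library size, and means are given ± SD over n = 2 libraries. These levels are not divided by transcript length, so that they are compared between libraries and not between genes. Log2 fold changes set Trbp-cKO over WT and carry a standard error (SE). The targeted gene, Tarbp2, was at 3.87 and 3.89 CPM in Trbp-cKO and 12.7 and 11.5 CPM in WT (log2 fold change -1.64 ± 0.17, edgeR adjusted p = 6.53e-04), and its span overlaps Map3k12. Defining ventricular genes were present in every library, among them Myl2 at 3669 and 3637 CPM in Trbp-cKO and 4569 and 4478 CPM in WT, and Irx4 at 61.6 and 57.8 CPM in Trbp-cKO and 51.0 and 54.8 CPM in WT.

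One Trbp-cKO library stood apart in its immediate early genes, which switch on within minutes of a stimulus. Fos had 395 CPM in Trbp-cKO replicate 1 and 30.0 CPM in Trbp-cKO replicate 2, against 28.7 and 4.36 CPM in WT. Egr1 followed with 314 and 68.7 CPM in Trbp-cKO and 61.1 and 23.0 CPM in WT. Of 18 such genes tested, 17 were higher in Trbp-cKO replicate 1 than in Trbp-cKO replicate 2, and Fosl2 was the exception. Likewise 17 of the 18 were higher in WT replicate 1 than in WT replicate 2. Their summed level was 4072 and 1714 CPM in Trbp-cKO and 1569 and 1028 CPM in WT. The part of this difference in the results below was not tested, and the fold changes of the 10 genes are also plotted with each library left out.

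Of the 10 genes 2 passed the test in the fit over all genes, and both were lower in Trbp-cKO (edgeR quasi-likelihood test, Benjamini-Hochberg adjusted p under 0.05). Over all 13625 tested genes 9.37% passed, 5.17% higher and 4.20% lower. The 2 genes were Fhl1 and Gdf15, while Nppa and Acta1, which had the largest fold changes of the 10, did not pass. In DESeq2 3 of the 10 passed, against 5.64% of all genes. They were Nppa as higher (3.30% of all genes) and Acta1 and Fhl1 as lower (2.33% of all genes). The genotypes did not overlap for 5 of the 10, against 54.6% of all tested genes, with Nppa higher in Trbp-cKO (27.5% of all genes) and Acta1, Fhl1, Rcan1 and Gdf15 lower (27.1% of all genes). With a single library left out of the edgeR fit, the genes that passed changed. Without Trbp-cKO replicate 1 Nppa and Ankrd1 were called higher (4.36% of all genes) and Fhl1 lower (3.31% of all genes). Without Trbp-cKO replicate 2 Nppa and Xirp1 were called higher (4.91% of all genes) and Ankrd1, Fhl1 and Rcan1 lower (3.50% of all genes). Without WT replicate 1 none was called higher (1.04% of all genes) and Acta1 was called lower (0.943% of all genes), and without WT replicate 2 likewise none was higher (1.12% of all genes) and Acta1 lower (1.02% of all genes). The median log2 fold change of the 10 was -0.24, and that of all tested genes 0.00.

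**Figure D1:**
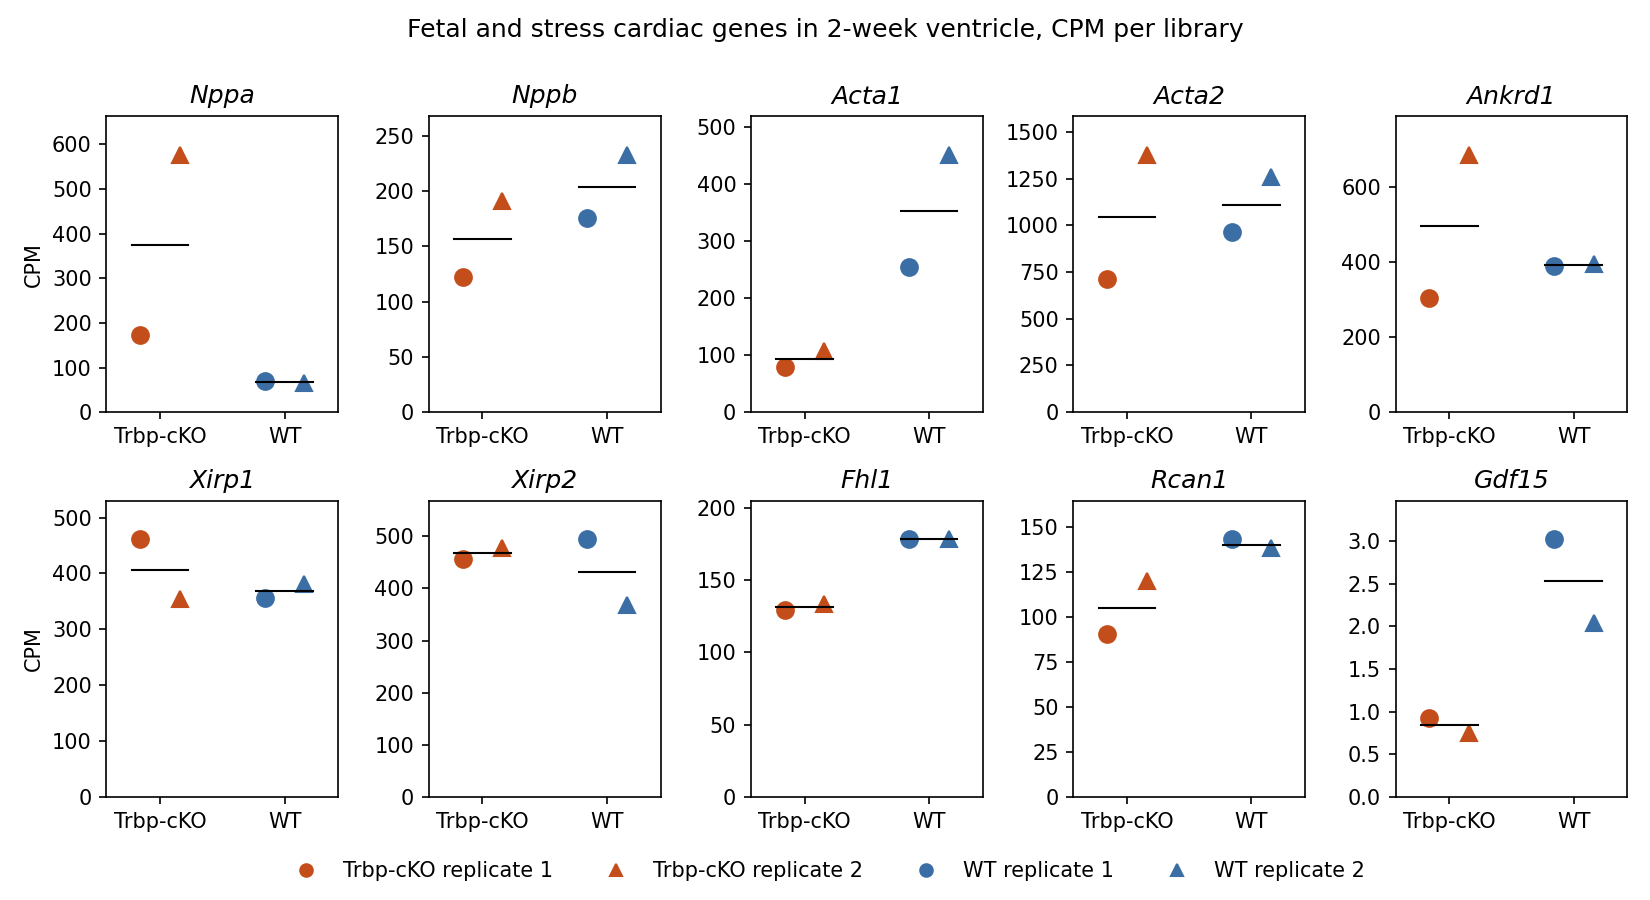
CPM of each of the 10 genes in the 2 Trbp-cKO libraries (orange) and the 2 WT libraries (blue), with circles for replicate 1, triangles for replicate 2 and a line at each genotype's mean. Nppa lies above and Acta1 below WT in both Trbp-cKO libraries, with one genotype widely spread in each case, while Fhl1 shows tight pairs that do not overlap.

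Promoter sequence is shown for the 3 genes on which the results turn, Nppa and Ankrd1, whose Trbp-cKO libraries lay farthest apart, and Acta1, which had the most negative log2 fold change. Each is the 250 bases before a RefSeq transcript start on GRCm38.p6, read 5′ to 3′ on the gene's strand. Capitals mark the MCAT motif (CATTCC on either strand, the site of TEAD factors), the CArG box of serum response factor, and the NKE motif (TNAAGTG on either strand, the site of Nkx2-5), and none of these matches overlaps another in the 3 sequences. The windows are chr4:148000472-148000721 on the plus strand for Nppa, chr8:123894776-123895025 on the minus strand for Acta1 and chr19:36119845-36120094 on the minus strand for Ankrd1.
Nppa: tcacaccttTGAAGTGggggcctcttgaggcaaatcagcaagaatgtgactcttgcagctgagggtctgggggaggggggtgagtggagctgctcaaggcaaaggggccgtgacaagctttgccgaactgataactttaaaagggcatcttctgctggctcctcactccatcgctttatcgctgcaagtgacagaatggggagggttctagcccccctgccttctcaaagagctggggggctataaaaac
Acta1: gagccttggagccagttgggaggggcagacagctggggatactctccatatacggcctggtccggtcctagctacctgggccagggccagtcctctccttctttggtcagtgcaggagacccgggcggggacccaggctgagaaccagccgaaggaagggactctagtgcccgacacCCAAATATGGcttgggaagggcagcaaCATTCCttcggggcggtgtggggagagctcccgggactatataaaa
Ankrd1: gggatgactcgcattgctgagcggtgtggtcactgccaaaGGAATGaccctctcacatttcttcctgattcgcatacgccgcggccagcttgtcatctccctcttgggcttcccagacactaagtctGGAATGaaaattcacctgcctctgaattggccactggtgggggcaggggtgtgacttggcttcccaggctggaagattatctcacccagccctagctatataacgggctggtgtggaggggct
The MCAT letters began 46 bases before the start of Acta1 and at 210 and 123 bases before that of Ankrd1, and were not in the window of Nppa. They were also in the windows of Nppb and Acta2, 105 and 146 bases before the transcript start used for each window. Both of these starts, and both matches, lie inside the gene spans given below. Across the 12 windows that the table holds for 9 of the 10 genes, 5 had an MCAT match, the fifth in a window of Gdf15, against 12.6% of 32851 windows of the same length over all genes. The CArG box was found in the windows of Acta1, 73 bases before the start, and Fhl1, 2 of 12 against 1.47% of all windows. The NKE letters were found in that of Nppa, 241 bases before the start, against 10.1% of all windows. A match of letters is a description of the window and not a bound site.

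Nppa (NM_008725, chromosome 4, 148000722 to 148002074 in GRCm38), the gene of atrial natriuretic peptide, a hormone that promotes salt excretion and lowers blood pressure, had the largest log2 fold change of the 10, though it did not pass. Its level was 173 and 577 CPM in Trbp-cKO replicates 1 and 2, against 68.9 and 66.4 CPM in WT replicates 1 and 2. Both Trbp-cKO libraries lay above both WT libraries, the WT libraries were close together, and the Trbp-cKO libraries were 2.55 and 8.54 times the WT mean. The means were 375 ± 286 CPM in Trbp-cKO and 67.7 ± 1.79 CPM in WT (SD, n = 2 each), with a log2 fold change of 2.47 ± 0.88 that did not pass (edgeR adjusted p = 0.307). It passed in DESeq2 (adjusted p = 0.0310). Without Trbp-cKO replicate 1 the log2 fold change was 3.09 (edgeR adjusted p = 2.33e-10). Leaving out Trbp-cKO replicate 2 gave 1.35 (edgeR adjusted p = 3.40e-06). A single library left in a genotype is assumed, here and below, to vary like the other pair. Without WT replicate 1 or 2 it was 2.50 or 2.44 and did not pass (edgeR adjusted p = 0.645 and 0.654).

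The direction for Nppa was the same in every fit run, and the size depended on the Trbp-cKO library. The libraries of this genotype differed 3.34-fold, a distance that 0.316% of tested genes reached or exceeded (rank 43 of 13625). In WT they differed by a ratio of 0.963. The authors' deposited table gives a ratio of 5.52 for Nppa with a q-value of 8.81e-54 and puts it in their list of 746 differential transcripts.

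Atrial markers were examined beside Nppa because the atrium is rich in its transcript. The defining atrial genes were at or near 0 counts in all 4 libraries. Sln had 1 and 0 counts in Trbp-cKO and 0 and 0 in WT, Bmp10 had 0 in every library, and Myl7 had 3 and 4 counts in Trbp-cKO and 1 and 2 in WT. Of 8 atrial markers 5 could be tested, and none passed in edgeR or DESeq2, with 2 at an unadjusted edgeR p under 0.05. For such counts, here and below, the share of all genes under that p was not computed. Their summed level was 753 and 809 CPM in Trbp-cKO and 669 and 684 CPM in WT, nearly all of it Pam, the peptide-amidating enzyme gene (699 and 747 CPM in Trbp-cKO, 625 and 635 CPM in WT). Stard10 was at 14.6 and 22.2 CPM in Trbp-cKO and 11.5 and 11.5 CPM in WT (log2 fold change 0.68 ± 0.20, edgeR adjusted p = 0.0862). Myl4, an atrial light chain that the fetal ventricle also makes, was at 3.56 and 6.73 CPM in Trbp-cKO and 2.04 and 4.17 CPM in WT. Of the 5 tested markers, 4 (Stard10, Pam, Myl4 and Dkk3) had their highest level in Trbp-cKO replicate 2, the library with the highest Nppa. These 4 were higher in Trbp-cKO replicate 2 than in replicate 1, as were 49.5% of all tested genes. In the WT pair all 5 were higher in replicate 2, Stard10 by less than the rounding shown, against 50.4%. Nppa there had a ratio of replicate 2 over replicate 1 of 0.963. Without Trbp-cKO replicate 1 the log2 fold changes of Stard10 and Pam were 0.95 and 0.24. Nr2f2 (23.2 and 20.0 CPM in Trbp-cKO, 19.2 and 20.5 CPM in WT) and Dkk3 (12.6 and 13.5 CPM in Trbp-cKO, 10.8 and 12.7 CPM in WT) did not pass. The part of these genes in the level of Nppa was not tested.

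Nppb (NM_008726, chromosome 4, 147985786 to 147987205), the gene of B-type natriuretic peptide, lies 13.5 kb before Nppa with no other annotated gene wholly between them. Its level was 122 and 191 CPM in Trbp-cKO, against 176 and 233 CPM in WT. The genotypes overlapped, with the lowest value in Trbp-cKO replicate 1 and the highest in WT replicate 2. The means were 157 ± 48.5 CPM in Trbp-cKO and 204 ± 40.2 CPM in WT (SD, n = 2 each), a log2 fold change of -0.38 ± 0.34 that did not pass (edgeR adjusted p = 0.617). Nppa and Nppb, neighbours that usually respond to load together, had log2 fold changes of opposite sign. The difference between their fold changes was not tested. Within the Trbp-cKO pair both were higher in replicate 2, Nppa 3.34-fold and Nppb 1.56-fold.

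Among 12 tested genes that process, sense or clear natriuretic peptides, 2 rose, 1 fell and 9 did not pass, with a median log2 fold change of 0.16. For this list and those below, the shares over all tested genes were 5.17% higher and 4.20% lower. Corin, the protease that cleaves the precursor of atrial natriuretic peptide, rose to 333 and 397 CPM in Trbp-cKO, against 257 and 248 CPM in WT (log2 fold change 0.53 ± 0.09, edgeR adjusted p = 0.00750). Furin, a proprotein convertase that can cut the B-type precursor, rose to 216 and 221 CPM in Trbp-cKO, against 186 and 181 CPM in WT (0.25 ± 0.07, edgeR adjusted p = 0.0416). Mme, which encodes neprilysin, a protease that degrades natriuretic peptides, fell to 8.13 and 4.86 CPM in Trbp-cKO, against 14.5 and 14.0 CPM in WT (-1.13 ± 0.23, edgeR adjusted p = 0.0204). The calls of Corin and Mme were lost without either WT library (edgeR adjusted p from 0.0986 to 0.159). That of Furin was lost in DESeq2 (adjusted p = 0.107), when either WT library was left out (edgeR adjusted p = 0.222 and 0.312), and when Trbp-cKO replicate 2 was (0.0732). The receptor genes Npr1 (log2 fold change 0.11 ± 0.09), Npr2 (-0.02 ± 0.07) and Npr3 (0.22 ± 0.11) did not pass.

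Acta1 (NM_009606, chromosome 8, 123891758 to 123894775), the skeletal alpha-actin that the fetal and the loaded heart use beside cardiac alpha-actin, had the most negative log2 fold change of the 10 and did not pass either. Its level was 78.5 and 107 CPM in Trbp-cKO, against 254 and 452 CPM in WT. Both Trbp-cKO libraries lay below both WT libraries, at 22.3% and 30.4% of the WT mean, and here the WT pair was the more widely spread. The means were 92.8 ± 20.2 CPM in Trbp-cKO and 353 ± 140 CPM in WT (SD, n = 2 each). The log2 fold change of -1.92 ± 0.46 missed the threshold in edgeR (adjusted p = 0.189) and passed in DESeq2 (adjusted p = 0.00116). It passed without WT replicate 1 (log2 fold change -2.28, edgeR adjusted p = 0.0159) and without WT replicate 2 (-1.46, edgeR adjusted p = 0.0472), and did not when a Trbp-cKO library was left out (-1.72 without replicate 1 and -2.16 without replicate 2). The WT libraries differed 1.78-fold, a distance that 1.92% of tested genes reached or exceeded. The authors' deposited table gives Acta1 a ratio of 0.263 and a q-value of 4.58e-34.

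Skeletal muscle in the sample would also carry Acta1, and most markers of skeletal fibres were close to 0. Of 13 genes listed as such markers, 11 were too low to test. The fast myosin gene Myh1 had 9 and 7 counts in Trbp-cKO and 5 and 3 in WT, and Myh4, another, had 5 and 6 counts in Trbp-cKO and 0 and 0 in WT. Tnnt3 had 2 and 8 counts in Trbp-cKO and 6 and 7 in WT, and Mylpf 4 and 8 counts in Trbp-cKO and 7 and 7 in WT. Myh2, Myh3, Myh8, Actn3, Tnnc2 and Pvalb had at most 3 counts in any library. So did Ckmt1, which is on the list but is not a marker of skeletal fibres. The summed level of the 2 tested markers was 88.0 and 51.9 CPM in Trbp-cKO and 6.18 and 3.39 CPM in WT. Nearly all of it was Tnni2, the fast troponin I gene, at 86.5 and 50.7 CPM in Trbp-cKO and 5.13 and 2.42 CPM in WT (edgeR adjusted p = 0.0809, DESeq2 adjusted p = 3.89e-09). Atp2a1, the calcium pump of fast fibres, was at 1.55 and 1.20 CPM in Trbp-cKO and 1.06 and 0.969 CPM in WT. Tnni2 was higher in both libraries with the lower Acta1, and its part in that result was not tested.

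Acta2 (NM_007392, chromosome 19, 34240336 to 34255585), the smooth muscle alpha-actin that cardiomyocytes express early in development and activated fibroblasts take up, was at 710 and 1378 CPM in Trbp-cKO and 964 and 1257 CPM in WT. The Trbp-cKO libraries held both the lowest and the highest value and so enclosed the WT pair. The log2 fold change was -0.09 ± 0.49 (edgeR adjusted p = 0.948), and it turned to 0.31 without Trbp-cKO replicate 1 and 0.11 without WT replicate 2. Within Trbp-cKO the libraries differed 1.94-fold, a distance that 1.22% of genes reached or exceeded. The coding sequences of Acta1, Acta2 and the cardiac actin Actc1 are nearly alike, and how reads with several matches were counted is not given in the sources used here, so that the counts of the actins are uncertain. Actc1 was at 16631 and 18291 CPM in Trbp-cKO and 18744 and 18933 CPM in WT (log2 fold change -0.11 ± 0.06, edgeR adjusted p = 0.318).

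Smooth muscle and pericytes also make Acta2. All 10 of their markers were tested and none passed in edgeR or DESeq2, with 3 at an unadjusted edgeR p under 0.05. Their summed level was 1782 and 1889 CPM in Trbp-cKO and 1720 and 1739 CPM in WT. Its largest part came from Abcc9, taken here as a pericyte gene, and the cells that made it were not determined. The smooth muscle genes Tagln (33.0 and 33.2 CPM in Trbp-cKO, 31.6 and 25.4 CPM in WT) and Myh11 (51.1 and 60.4 CPM in Trbp-cKO, 57.5 and 40.3 CPM in WT) differed less between the Trbp-cKO libraries than Acta2 did. Like Acta2, 9 of the 10 markers were higher in Trbp-cKO replicate 2 than in replicate 1, against 49.5% of all tested genes. In the WT pair 3 were higher in replicate 2, against 50.4%. The part of these genes in the level of Acta2 was not tested. The pericyte genes Abcc9 (717 and 768 CPM in Trbp-cKO, 612 and 683 CPM in WT) and Cspg4 (70.9 and 87.1 CPM in Trbp-cKO, 67.5 and 64.9 CPM in WT) had the smallest p of the list, and without Trbp-cKO replicate 1 Cspg4 passed (log2 fold change 0.40, edgeR adjusted p = 0.0158). Myl9, a smooth muscle and non-muscle regulatory light chain, was at 290 and 547 CPM in Trbp-cKO and 145 and 181 CPM in WT, a log2 fold change of 1.36 ± 0.46 that did not pass (edgeR adjusted p = 0.281) but did once Trbp-cKO replicate 1 was left out (0.0127).

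Ankrd1 (NM_013468, chromosome 19, 36111965 to 36119844) encodes a stretch-responsive ankyrin repeat protein that binds titin in the sarcomere and also acts in the nucleus. Its level was 305 and 686 CPM in Trbp-cKO, against 389 and 395 CPM in WT. The WT libraries were nearly equal, and the Trbp-cKO libraries lay one below and one above them, at 77.8% and 175% of the WT mean. With all libraries the log2 fold change was 0.34 ± 0.55 and did not pass (edgeR adjusted p = 0.799). Without Trbp-cKO replicate 1 it was 0.81 and passed (edgeR adjusted p = 2.78e-05). Leaving out Trbp-cKO replicate 2 gave -0.36 and passed in the other direction (edgeR adjusted p = 0.00948). The direction of Ankrd1 thus depended on which Trbp-cKO library was left out. The 2.25-fold difference within Trbp-cKO was reached or exceeded by 0.705% of genes, and 88.7% of genes were at least as far apart in WT.

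**Figure D2:**
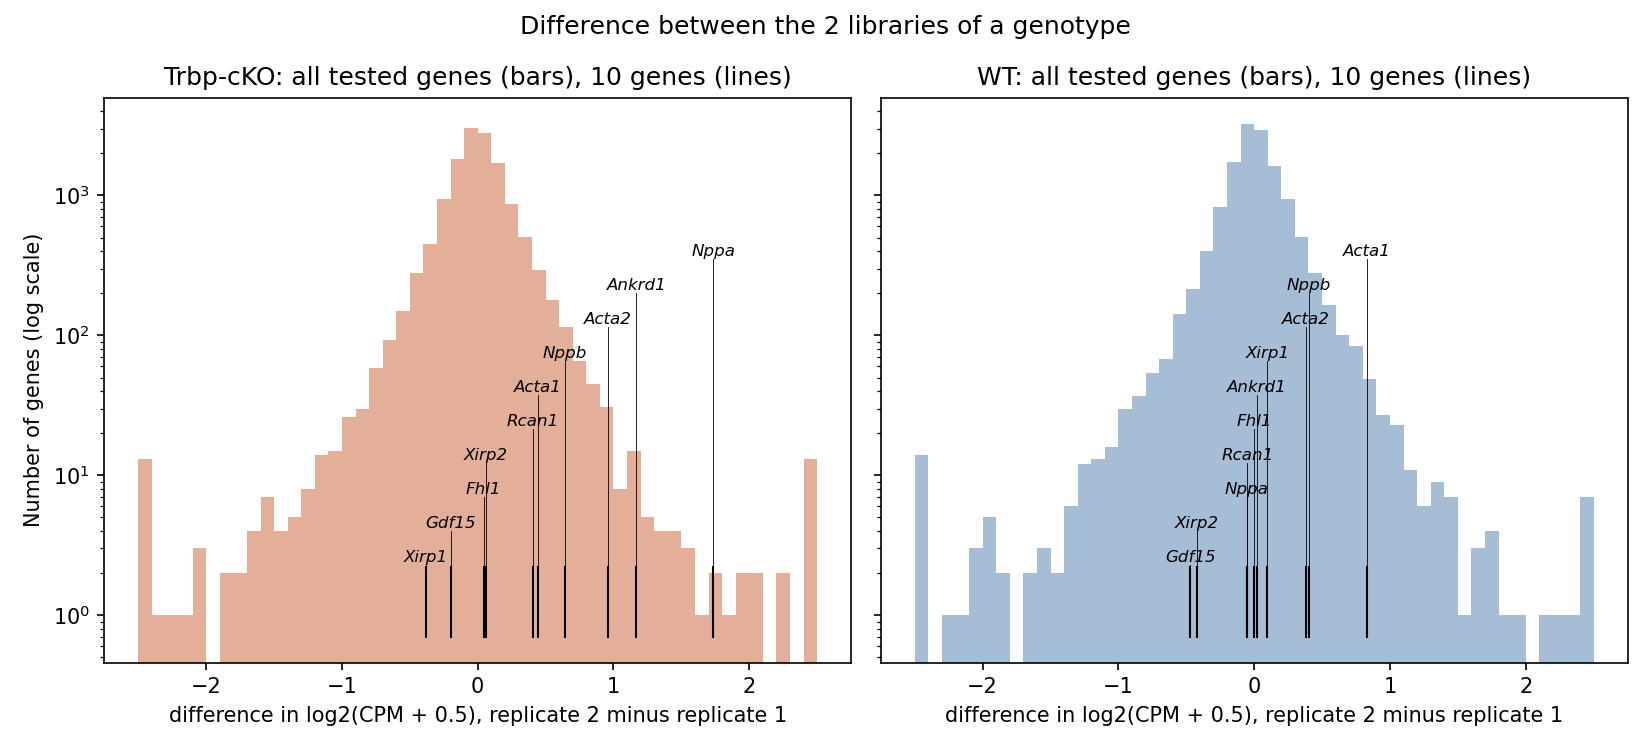
Histograms of the difference in log2(CPM + 0.5) between replicate 2 and replicate 1 over 13625 tested genes, for Trbp-cKO (left) and WT (right), on a log count axis, with differences beyond 2.5 placed in the end bins and a line for each of the 10 genes. In Trbp-cKO the lines of Nppa, Ankrd1 and Acta2 lie in the thin right tail, and in WT that of Acta1 lies farthest out.

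Xirp1 and Xirp2 encode Xin repeat proteins that bind actin at the intercalated disc and in the sarcomere. Xirp1 (NM_011724, chromosome 9, 120013755 to 120023598) was at 461 and 354 CPM in Trbp-cKO and 356 and 381 CPM in WT, with overlap of the genotypes. Its log2 fold change was 0.14 ± 0.13 (edgeR adjusted p = 0.566). It was -0.06 without Trbp-cKO replicate 1 and passed at 0.33 without Trbp-cKO replicate 2 (edgeR adjusted p = 0.0173). Xirp2 (NM_001024618, chromosome 2, 67446000 to 67526620) was at 457 and 477 CPM in Trbp-cKO and 494 and 369 CPM in WT, so that the WT libraries enclosed the Trbp-cKO pair. Its log2 fold change of 0.11 ± 0.14 did not pass (edgeR adjusted p = 0.700) and was -0.09 without WT replicate 2. The 2 deposited transcripts of Xirp2 held identical counts in every library, and its span overlaps the predicted gene Gm13601.

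Fhl1 (NM_001077361, chromosome X, 56731209 to 56793346), a LIM-domain protein of the sarcomere that takes part in stretch signalling, fell to 129 and 133 CPM in Trbp-cKO, against 178 and 178 CPM in WT. Both pairs were tight and did not overlap, and the Trbp-cKO libraries were at 72.2% and 74.7% of the WT mean. The log2 fold change was -0.44 ± 0.06 (edgeR adjusted p = 0.00294, DESeq2 adjusted p = 3.00e-04), and from -0.47 to -0.42 with 1 library left out. The call was lost when WT replicate 1 or 2 was left out (edgeR adjusted p = 0.0674 and 0.0648). Its 3 deposited transcripts had total counts of 7486, 7601 and 7641 over the 4 libraries, and the last was used. The authors' deposited table gives the same transcript a ratio of 0.732 and a q-value of 0.0555. Fhl1 is not in their list of differential transcripts, where the largest q-value is 0.00972. The annotated span of Fhl1 holds the small gene Gm23258.

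Rcan1 (NM_019466, chromosome 16, 92391951 to 92466169) encodes an inhibitor of calcineurin, the calcium-activated phosphatase that drives NFAT factors, and its shorter isoform is itself an NFAT target. Its level was 90.5 and 120 CPM in Trbp-cKO, against 143 and 138 CPM in WT. Both Trbp-cKO libraries lay below both WT libraries. The log2 fold change was -0.41 ± 0.14 and did not pass (edgeR adjusted p = 0.153), nor did it pass in DESeq2 (adjusted p = 0.0502). It passed without Trbp-cKO replicate 2, at -0.63 (edgeR adjusted p = 5.69e-04); leaving out Trbp-cKO replicate 1 gave -0.22 (0.101). The 2 deposited transcripts, with 6064 and 6101 counts in total, share nearly all their reads, so that the isoforms cannot be told apart. Predicted genes Gm41498 and Gm46555 overlap the span.

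Gdf15 (NM_011819, chromosome 8, 70629393 to 70632470), a secreted stress cytokine, was low in every library and fell in Trbp-cKO. It had 12 and 10 counts in Trbp-cKO and 40 and 21 counts in WT, or 0.929 and 0.747 CPM in Trbp-cKO and 3.02 and 2.04 CPM in WT. The genotypes did not overlap, and the log2 fold change was -1.60 ± 0.37 (edgeR adjusted p = 0.0280). The call was lost in DESeq2 (adjusted p = 0.193) and without each of the libraries in turn (edgeR adjusted p from 0.0569 to 0.259), with log2 fold changes from -1.84 to -1.27. The authors' deposited table gives a ratio of 0.326 and a q-value of 8.44e-04. Of the 10 genes 3, Gdf15, Nppa and Acta1, are in their differential list, which holds 746 of 30635 transcript rows.

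**Figure D3:**
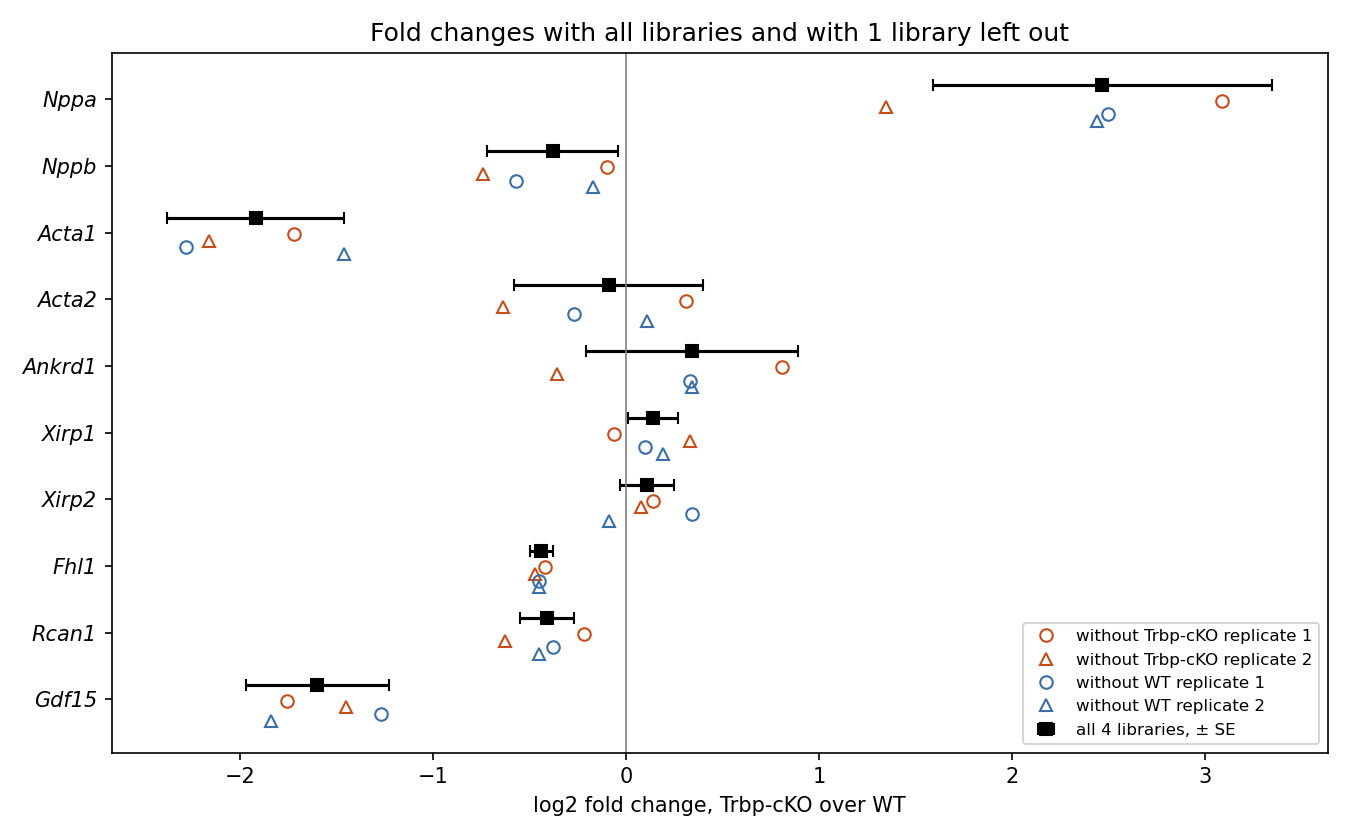
Log2 fold changes, Trbp-cKO over WT, of the 10 genes with all 4 libraries (black squares, bars are ± SE) and with 1 library left out (open symbols, orange for a Trbp-cKO library and blue for a WT library). Nppa stays to the right of 0 and Acta1, Gdf15, Fhl1, Rcan1 and Nppb to the left in all 5 fits, while Ankrd1, Acta2, Xirp1 and Xirp2 cross 0.

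Differences between the libraries of one genotype were described for the 10 genes together. In the Trbp-cKO pair 8 of 10 were higher in replicate 2, against 49.5% of all tested genes, and in the WT pair 6 of 10, against 50.4%. The 2 that were lower in Trbp-cKO replicate 2 were Xirp1, with a ratio of replicate 2 over replicate 1 of 0.766, and Gdf15, with 0.804. More than 2-fold apart within Trbp-cKO were 2 of the 10, Nppa and Ankrd1, as were 1.05% of all tested genes. None of the 10 was that far apart within WT, where 1.14% of genes were.

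Genes with the most similar course over the 4 libraries were then named for Nppa and Ankrd1, by the root mean square difference of log2 CPM centred on each gene's mean, among 10539 genes with at least 5 CPM on average. Nearest to Nppa was Slc24a2, a sodium, calcium and potassium exchanger gene, at 25.8 and 46.6 CPM in Trbp-cKO and 5.28 and 4.07 CPM in WT (difference 0.48). Wif1, a secreted Wnt inhibitor, followed at 6.58 and 16.8 CPM in Trbp-cKO and 3.17 and 4.94 CPM in WT (0.49), then Scgb1c1 (0.51), Myl9 (0.56) and Phactr1 (0.59). Of these 5, Scgb1c1 and Phactr1 passed the genotype test (edgeR adjusted p = 9.71e-04 and 8.86e-06). Ankrd1 had much closer neighbours, Gpatch11 (0.10), Mtcl1 (0.15), Cd33 (0.15), Prr33 (0.16) and Sytl2 (0.17), none of which passed (edgeR adjusted p from 0.378 to 0.797). Over 4 libraries such likeness is a description only. The genes named here were picked on the same values that the genotype test uses. Whether they passed therefore follows in part from that choice and is no separate evidence.

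**Figure D4:**
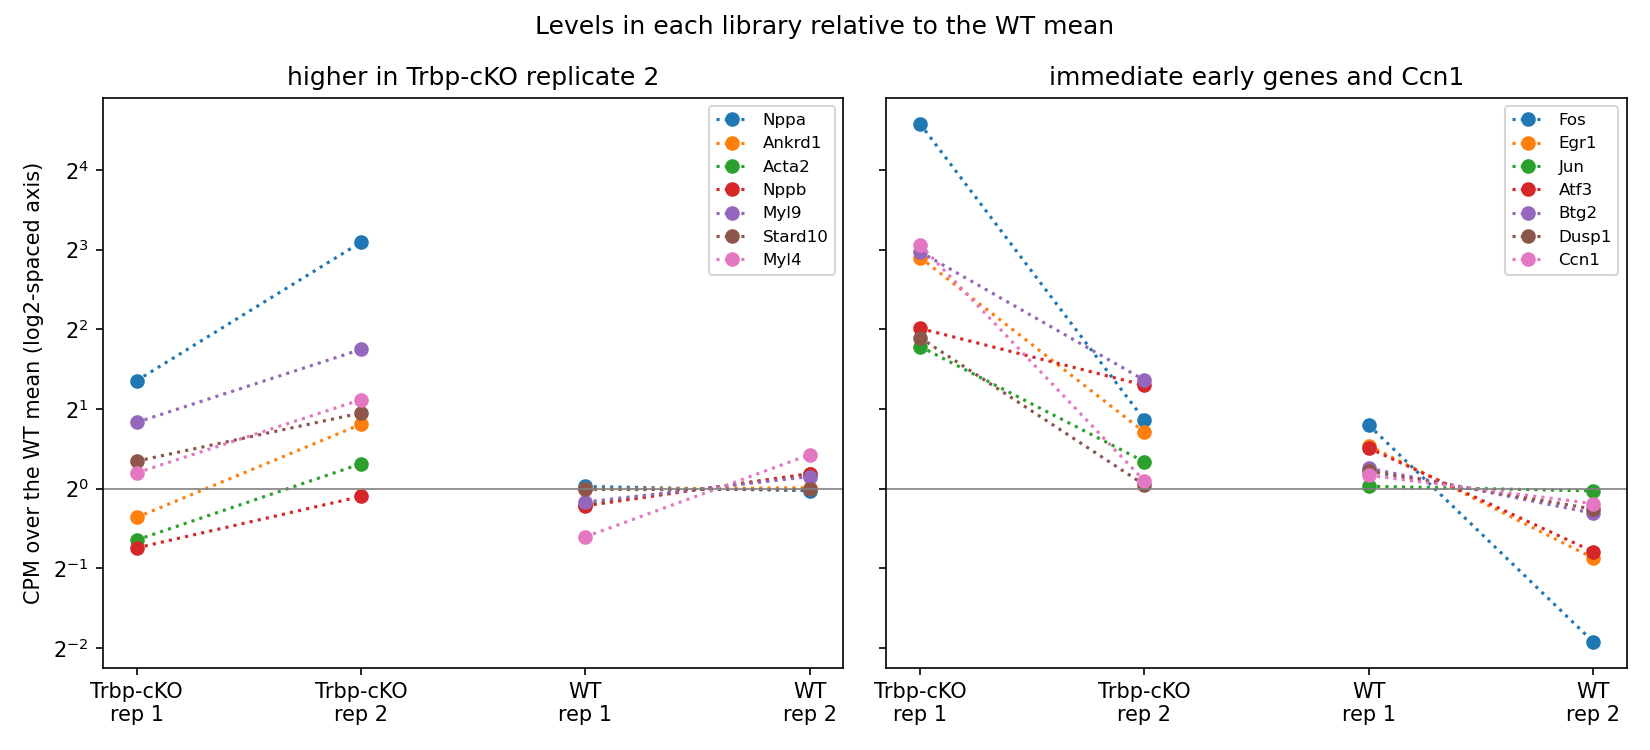
CPM over the WT mean on a log2-spaced axis in each library, with dotted lines joining the points of one gene within a genotype, for 7 genes that were higher in Trbp-cKO replicate 2 than in replicate 1 (left) and 6 immediate early genes and Ccn1 (right), all 14 picked after their values were seen. Nppa reaches 8.54 times the WT mean in Trbp-cKO replicate 2, and Fos 24.0 times in Trbp-cKO replicate 1.

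Other genes known from the fetal and stressed heart were spread around 0. Of 17 tested, 1 rose, 1 fell and 15 did not pass, with a median log2 fold change of 0.18. Ccn2, a matrix-associated growth factor and YAP target, rose to 181 and 158 CPM in Trbp-cKO, against 108 and 122 CPM in WT (0.56 ± 0.09, edgeR adjusted p = 0.00585), and lost its call without WT replicate 1 (0.0993). Hcn4, a pacemaker channel of the embryonic heart, fell to 2.25 and 2.69 CPM in Trbp-cKO, against 11.3 and 11.2 CPM in WT (-2.19 ± 0.19, edgeR adjusted p = 2.40e-04), and kept its call in all 4 fits with 1 library left out. Myh7, the fetal ventricular myosin heavy chain of the mouse, was at 584 and 708 CPM in Trbp-cKO and 542 and 520 CPM in WT and did not pass (0.28 ± 0.09, edgeR adjusted p = 0.107). Cacna1h, a fetal T-type calcium channel, was at 37.1 and 27.0 CPM in Trbp-cKO and 9.35 and 3.97 CPM in WT (2.23 ± 0.49). It missed the threshold in edgeR (adjusted p = 0.126) and passed in DESeq2 (adjusted p = 0.00723).

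The list of SRF, MRTF and YAP-TEAD factors and targets, regulators that read actin dynamics and stretch, had 3 genes that rose, 2 that fell and 15 that did not pass of 20 tested (median 0.08). Mrtfb, a coactivator of serum response factor, rose to 89.3 and 93.8 CPM in Trbp-cKO, against 68.1 and 66.8 CPM in WT (0.44 ± 0.07, edgeR adjusted p = 0.00459). Tpm4, a tropomyosin, fell to 131 and 128 CPM in Trbp-cKO, against 172 and 174 CPM in WT (-0.42 ± 0.06, edgeR adjusted p = 0.00373), and Fhl2, a LIM-domain relative of Fhl1, to 1731 and 1801 CPM in Trbp-cKO, against 2175 and 2397 CPM in WT (-0.37 ± 0.07, edgeR adjusted p = 0.0118). These 3 calls were lost without either WT library (edgeR adjusted p from 0.0700 to 0.195). Wwtr1, another factor on the list, rose to 205 and 212 CPM in Trbp-cKO, against 172 and 166 CPM in WT. Its log2 fold change was 0.30 ± 0.07 (edgeR adjusted p = 0.0209, DESeq2 adjusted p = 0.0332). Also on this list and higher was Ccn2, as given above. Srf itself (0.12 ± 0.07), Tead1 (0.00 ± 0.07) and Yap1 (0.05 ± 0.07) did not pass. Myocd, the myocardin coactivator, was at 91.8 and 119 CPM in Trbp-cKO and 188 and 155 CPM in WT and missed the threshold in edgeR (adjusted p = 0.0912), while it passed in DESeq2 (adjusted p = 7.02e-05). The YAP target Ccn1 was at 375 CPM in Trbp-cKO replicate 1 and 48.1 CPM in Trbp-cKO replicate 2, against 50.5 and 39.5 CPM in WT.

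In the calcineurin and NFAT pathway, which Rcan1 restrains, 1 of 19 tested genes rose, 1 fell and 17 did not pass (median 0.05). The transcription factor gene Mef2a rose to 210 and 218 CPM in Trbp-cKO, against 168 and 175 CPM in WT (0.32 ± 0.07, edgeR adjusted p = 0.0162). Akap5, an anchor protein of calcineurin, fell to 7.82 and 10.8 CPM in Trbp-cKO, against 14.4 and 15.2 CPM in WT (-0.66 ± 0.18, edgeR adjusted p = 0.0487). Neither call held without a WT library (edgeR adjusted p from 0.147 to 0.228), and that of Akap5 was also lost without Trbp-cKO replicate 1 (0.186) and in DESeq2 (adjusted p = 0.153). The other regulators of calcineurin, Rcan2 (0.15 ± 0.08) and Rcan3 (0.22 ± 0.10), had log2 fold changes opposite in sign to that of Rcan1, and none of the 3 passed.

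Partners of Ankrd1, Xirp1, Xirp2 and Fhl1 at the Z-disc, on titin and at the intercalated disc had 4 genes that rose, 7 that fell and 11 that did not pass of 22 tested (median -0.07), where 5.17% of all genes rose and 4.20% fell. With either WT library left out, 1 was called higher and 2 lower, against 1.04% and 0.943% of all genes without WT replicate 1 and 1.12% and 1.02% without WT replicate 2. Cavin4, a caveolar protein of muscle, fell to 74.5 and 73.2 CPM in Trbp-cKO, against 158 and 151 CPM in WT (-1.07 ± 0.07, edgeR adjusted p = 2.78e-05). Trim55, a titin-associated ubiquitin ligase, fell to 89.5 and 106 CPM in Trbp-cKO, against 169 and 193 CPM in WT (-0.89 ± 0.10, edgeR adjusted p = 0.00258). Csrp3, the muscle LIM protein, fell to 714 and 741 CPM in Trbp-cKO, against 1039 and 1054 CPM in WT (-0.52 ± 0.07, edgeR adjusted p = 0.00158). Tcap, the titin cap, rose to 1295 and 1203 CPM in Trbp-cKO, against 699 and 716 CPM in WT (0.82 ± 0.07, edgeR adjusted p = 2.02e-04). Cavin4, Trim55 and Tcap passed in all 4 fits with 1 library left out, and Csrp3 was lost without either WT library (edgeR adjusted p = 0.0597 and 0.0553). Ankrd23, a relative of Ankrd1 that also binds titin, fell to 205 and 209 CPM in Trbp-cKO, against 268 and 285 CPM in WT (-0.42 ± 0.07, edgeR adjusted p = 0.00578), and Ankrd2 had at most 2 counts in a library.

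**Figure D5:**
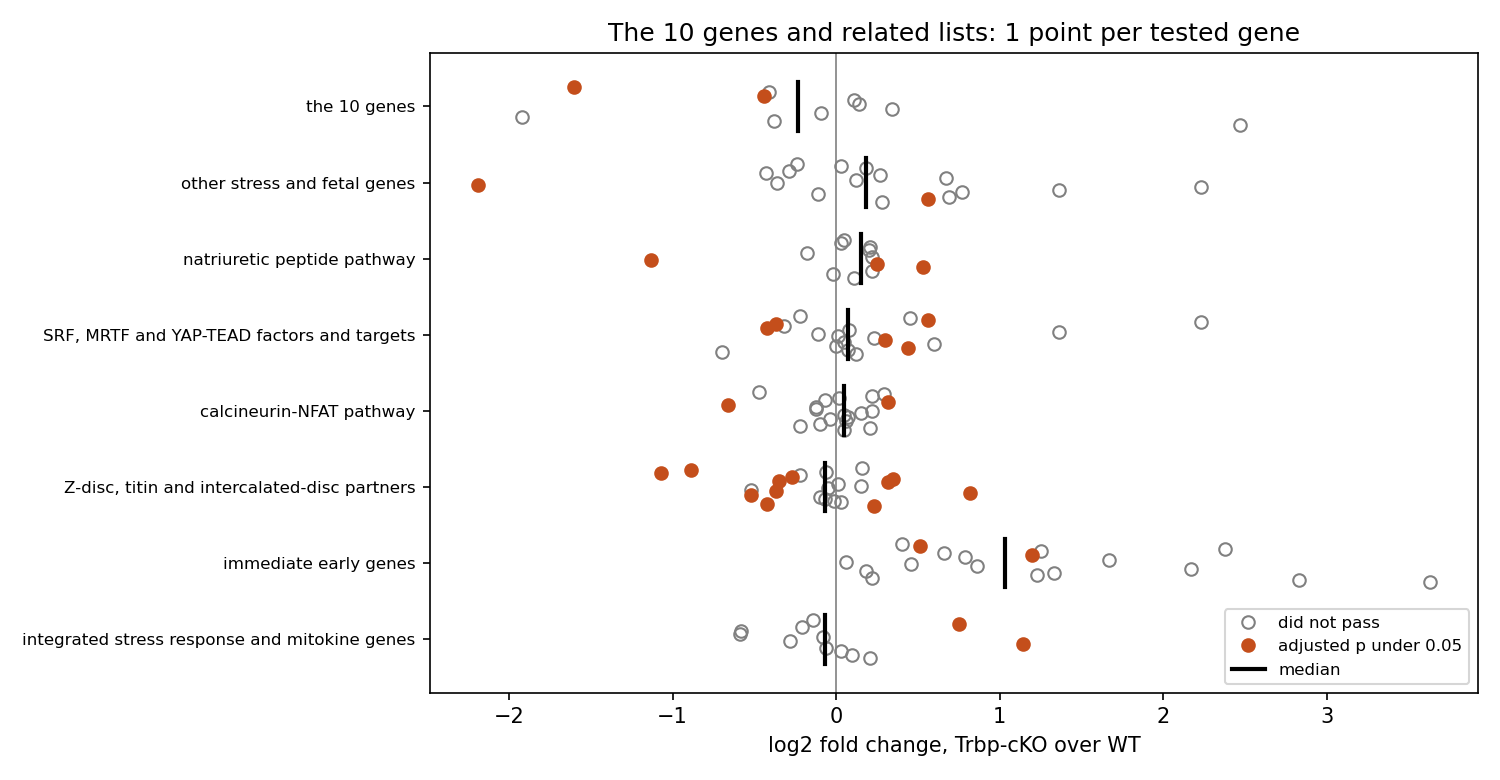
Log2 fold changes, Trbp-cKO over WT, of the 10 genes and of the tested genes in 7 related lists, 1 point per gene, filled where the edgeR adjusted p was under 0.05, with a bar at each median. The medians lie between -0.24 and 0.18 except for the immediate early genes, at 1.03, of which 2 of 18 passed.

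Of the 18 immediate early genes 2 rose, none fell and 16 did not pass, with a median log2 fold change of 1.03. Ier3 rose to 66.9 and 55.8 CPM in Trbp-cKO, against 27.6 and 25.9 CPM in WT (1.20 ± 0.11, edgeR adjusted p = 2.58e-04), and passed in all 4 fits with 1 library left out. Klf4, a zinc finger factor, rose to 128 and 111 CPM in Trbp-cKO, against 90.5 and 77.5 CPM in WT (0.51 ± 0.10, edgeR adjusted p = 0.0163), and lost its call without either WT library (0.0549 and 0.150). Without Trbp-cKO replicate 2 the number called higher was 6. Nppa and Fos peaked in different Trbp-cKO libraries, Nppa in replicate 2 and Fos in replicate 1.

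Genes of the integrated stress response, which induces Gdf15 in many cell types, were then read. Of 12 tested, 2 rose, none fell and 10 did not pass (median -0.07). Chac1, a glutathione-degrading enzyme, rose to 15.4 and 22.5 CPM in Trbp-cKO, against 8.37 and 8.82 CPM in WT (1.14 ± 0.20, edgeR adjusted p = 0.00855), and lost its call without either WT library (0.126 and 0.109). Aldh1l2, a mitochondrial folate enzyme, rose to 83.7 and 97.0 CPM in Trbp-cKO, against 56.3 and 51.2 CPM in WT (0.75 ± 0.09, edgeR adjusted p = 0.00140), and passed in all 4 fits with 1 library left out. Atf4 (0.21 ± 0.08), Ddit3 (0.03 ± 0.16) and Trib3 (-0.06 ± 0.29) did not pass. Nor did Mthfd2 (-0.59 ± 0.25), Psat1 (-0.58 ± 0.21), Shmt2 (-0.21 ± 0.08) or Asns (-0.28 ± 0.26), all with negative log2 fold changes. The rest, Atf5 (0.10 ± 0.09), Sesn2 (-0.08 ± 0.18) and Vldlr (-0.14 ± 0.07), did not pass either. Fgf21, the other stress hormone on the list, had at most 1 count in a library.

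Markers of other cell types stood as follows, beside 5.17% of all tested genes called higher and 4.20% lower. Among 10 fibroblast markers 2 rose and 4 fell, with Gsn (0.66 ± 0.09) and Fbln1 (0.54 ± 0.11) higher and the collagen genes Col1a1 (-0.63 ± 0.11) and Col1a2 (-0.55 ± 0.09) lower. Of 9 macrophage and leukocyte markers none passed in edgeR or DESeq2, with Cd14 (0.69 ± 0.20) and Cd163 (0.38 ± 0.12) at an unadjusted edgeR p under 0.05. Of 6 conduction markers tested 1 rose, 1 fell and 4 did not pass, and in DESeq2 none rose. Hcn4 was the marker that fell, as given above. Of 6 erythroid markers 4 fell (median -0.47). They were Alas2 (-0.48 ± 0.10), Hbb-bt (-0.25 ± 0.07) and the alpha globin copies Hba-a1 and Hba-a2, which held identical counts (-0.47 ± 0.10). Of 9 ventricular cardiomyocyte genes 3 rose and 1 fell, Myh6 (0.39 ± 0.05), Tnnt2 (0.39 ± 0.08) and Ryr2 (0.32 ± 0.06) being higher and Myl2 (-0.31 ± 0.06) lower. The calls of Myh6, Tnnt2, Ryr2 and Myl2 were lost without either WT library (edgeR adjusted p from 0.110 to 0.250). Gsn, Fbln1, Col1a1 and Col1a2 each lost their call once WT replicate 1 was left out (edgeR adjusted p from 0.0638 to 0.125). Gsn and Fbln1 also lost it without Trbp-cKO replicate 2 (0.0591 and 0.0631), and Col1a1 without WT replicate 2 (0.0539). Of the 4 erythroid calls, 0 to 2 were left when a library was omitted. Hba-a1 and Hba-a2 held only without WT replicate 1 and Alas2 only without Trbp-cKO replicate 2, while Hbb-bt held in none of these 4 fits nor in DESeq2 (adjusted p = 0.207). The part of these cell types in the levels of the 10 genes was not tested.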

How the data were processed

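TruSeq mRNA libraries of 2-week ventricle RNA were compared, 2 Trbp-cKO and 2 WT, as the labels group them. The authors deposited raw read counts per RefSeq transcript (30635 rows), and a ratio, p-value and q-value for each in their own comparison, per the file headers. The header of their differential list gives the age as Day16, where the labels say 2 weeks. Per the submitters' processing notes the build was mm10, and the tools named are Bowtie 0.12.9, SAMtools 0.1.16, cutadapt 0.9.5, CASAVA 1.8.2 and edgeR. How reads with several matches or of either strand were counted is not given in the sources used here. Small RNA libraries were not used here.

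Symbols came from the RefSeq table (30020 rows matched, and of 3903 blank symbols 3793 were filled). The 110 unnamed rows, 0.117% to 0.14% of counts, were left out, and the transcript with the highest total stood for each gene. Counts were filtered with filterByExpr, scaled by TMM and tested with edgeR 4.0.16 quasi-likelihood (R 4.3.3, limma 3.58.1), with Benjamini-Hochberg adjustment over 13625 genes at 0.05. The alternatives were DESeq2 1.42.0, other scalings, filters and transcript choices, a replicate block, and each library left out. The fits were tested on simulated data with the same dispersion for all genes. Genes with libraries as far apart as those of Nppa were therefore not imitated. Replicate differences were ranked with a pseudocount of 0.5 CPM.

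The 10 genes and the gene lists were chosen with earlier results of these data known. The genes named are the 10, Tarbp2, up to 4 passing genes with the smallest p per list (2 where none passed), all atrial and skeletal markers, and the 5 nearest genes by library pattern. Genes named beyond these were chosen after their values were seen. One marker picked by the smallest p per list is not reported here.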

Additional observations from a re-analysis of the deposited data

How the results depend on the processing

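Over all genes 705 were called higher and 572 lower in Trbp-cKO (edgeR). DESeq2 called 450 and 318, and leaving out 1 library gave 144 to 684 and 131 to 487, lowest without WT replicate 1. Scaling to library totals gave 541 higher and 726 lower, so that 42.7% of calls were higher, against 55.2% with TMM. An unadjusted edgeR p was under 0.05 for 4 of the 10 genes, Acta1, Fhl1, Rcan1 and Gdf15, all lower in Trbp-cKO. The share of all genes below it was not computed. Of the 10 genes 0 were called higher. DESeq2 called 1, and leaving out 1 library gave 0 to 2. The 2 called lower became 1 at a mean of at least 5 CPM, where Gdf15 was not tested, and 1 to 3 with 1 library left out. With replicate number as a block 4 were called lower, among them Acta1 (edgeR adjusted p = 9.04e-04) and Nppb (0.0331), and 549 genes were higher and 439 lower. The labels do not say that the numbers pair the samples, and same-numbered deviations correlated at 0.17 over 13625 genes, with 2 pairs. With 1 library left out the log2 fold change ran from -0.64 to 0.31 for Acta2 (positive without Trbp-cKO replicate 1, at 0.31, and WT replicate 2, at 0.11), from -0.36 (without Trbp-cKO replicate 2) to 0.81 for Ankrd1, from -0.06 (without Trbp-cKO replicate 1) to 0.33 for Xirp1 and from -0.09 (without WT replicate 2) to 0.34 for Xirp2. Of the fold changes of the 10 genes without a change of sign under the alternatives, 96 kept direction and side of the threshold, 7 lost a call and 11 gained one in the same direction. Tarbp2 kept its call in all 12. The causes were not tested. With 2 libraries per genotype the spread between them limits precision, and for Gdf15, with 10 to 40 counts, so does depth.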
